A study of Homo sapiens with 36 samples.

Results

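Vehicle-treated wild-type macrophages were compared between 24 h and 6 h of culture with vehicle, with 12 h as the intermediate point. These are the 9 libraries (3 per time) titled WT and Vehicle, out of 36 in the series, and the comparison ran across 21232 genes of the 21599 in the table. All cells were THP-1, a human monocytic leukaemia line, treated with phorbol ester (PMA) at 100 nM for 72 h and then given vehicle for 6, 12 or 24 h. The other groups used for comparison were IRG1 KO cells with vehicle (6 libraries at 6 and 24 h) and WT cells with LPS at 200 ng/mL plus IFN-γ at 200 ng/mL (6 libraries at 6 and 24 h), all with the same PMA treatment. IRG1, or ACOD1, makes itaconate. The labels do not say whether PMA stayed in the medium during the vehicle period, whether the KO line is 1 clone, or whether the 3 replicates were separate cultures, so p-values measure the spread between these samples, which may be technical.

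THP-1 cells divide in suspension as monocyte-like precursors. PMA activates protein kinase C, which drives the ERK pathway and AP-1 transcription factors, and the cells stop dividing, attach and take on macrophage features. A vehicle group carries no added inflammatory stimulus, and a stimulated time course is usually read against it. Its change over time holds whatever differed between the times, and time since PMA, since vehicle addition and at harvest cannot be told apart here. PMA is known to induce growth-factor ligands, adhesion and matrix genes and the phosphatase DUSP1, which switches MAP kinases off.

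Values are the deposited log2 expression values, with library medians of 5.47 to 5.48, and sequencing depth is not known. At the low end values recur in steps, for example 596 genes at 0.00, 308 at 1.51 and 234 at 2.15 in 6 h replicate 1, so differences among low levels are coarse. ACOD1 was near the floor in every WT vehicle library, at 0.41, 0.19 and 0.19 at 6 h and 0.59, 0.86 and 0.32 at 24 h, a change of 0.33 (SE 0.47, limma unadjusted p = 0.493). Macrophage markers were measured throughout, with CD68 between 12.09 and 13.15 and SPI1, the myeloid transcription factor PU.1, between 10.49 and 11.21. Of 14 markers of other cell types with a row, PECAM1 (7.85 to 9.19), NKG7 (4.26 to 7.93) and COL1A1 (3.89 to 5.65) were above 3.32 in every library, 4 to 9 were below 3.32 in each library, and HBA1 was at or near 0 in most. Their summed log2 level was 45.8, 40.2 and 55.8 at 6 h and 43.3, 38.9 and 50.2 at 24 h, lower at 24 h for each replicate number although the ranges overlap; its part in the results was not tested.

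The 9 libraries differed more by replicate number than by time. Replicate number accounted for 49.8% of the sum of squares over genes, time for 22.8% and the remainder for 27.4%. Libraries of like number at different times correlated at 0.951 to 0.974 across genes, and libraries of the same time at 0.930 to 0.962. Time explained 77.8% of the third component, which held 15.2% of the variance. On it every replicate number moved the same way, from 18.1, 30.5 and 59.5 at 6 h to -51.8, -21.1 and -22.4 at 24 h.

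**Figure D1:**
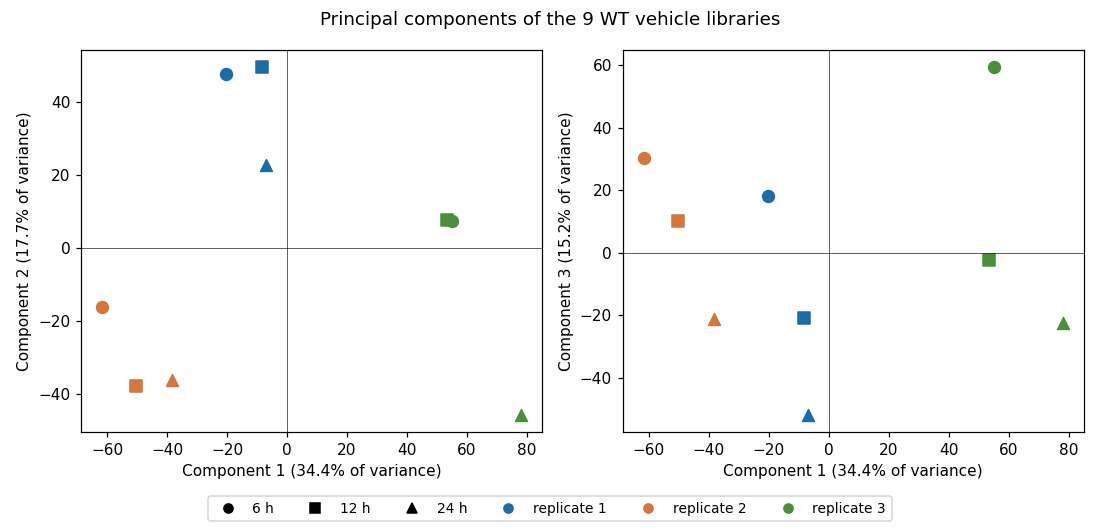
Scores of the 9 WT vehicle libraries on principal components 1 and 2 (left) and 1 and 3 (right); marker shape gives the time and colour the replicate number. Component 1 (34.4% of the variance) separates the replicate numbers, and component 3 (15.2%) orders the times within each of them.

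Between 6 and 24 h, 19 genes passed an adjusted p of 0.05 (limma, Benjamini-Hochberg), 0.0895% of those tested: 17 lower at 24 h (0.0801%) and 2 higher (0.00942%). The falling genes included PTGES, the inducible prostaglandin E synthase, the ligand WNT10B, the water channel AQP1, the MAP kinase phosphatase DUSP1 and the cytoskeletal proteins CTTN and DPYSL3, with changes of -1.50 to -3.71 on the log2 scale. The 2 rising genes were MTARC1, a mitochondrial amidoxime-reducing enzyme, at 2.12, and COL9A2, a chain of collagen IX, at 1.20. With replicate number as a block in the model, 104 genes passed (0.49%), 73 lower (0.344%) and 31 higher (0.146%), and all 19 were among them. With the block in the 9 WT vehicle libraries alone, 498 passed. Without the block, 0 genes passed in those 9 libraries alone or in only the 6 libraries compared. The fit that called the 19 took its spread from all 36 libraries. In the limma fits over all 36, 1176 genes (5.54%) had an unadjusted p below 0.05 without the block and 1647 (7.76%) with it. Such a threshold passes a share of about 0.05 where no gene changes.

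These counts rest on single libraries. Without 24 h replicate 3 no gene passed in limma (821 at an unadjusted p below 0.05, and 2 genes passed with the block), without 24 h replicate 1 only 2 did, and without 6 h replicate 1, 2 or 3 the counts were 1, 9 and 11. Without 24 h replicate 2 the count was again 19, but 8 of the original 19 no longer passed. WNT10B and ADGRG1 missed the threshold whichever of the 6 libraries was left out, while SPOCD1 and DPYSL3 missed it in 3 of the 6. With the block the corresponding counts were 27, 88 and 2 without 24 h replicates 1, 2 and 3, and 1, 60 and 37 without 6 h replicates 1, 2 and 3. None of the 19 genes reversed direction in these fits. Without the block that outcome was fixed in advance, since their 6 h and 24 h values did not overlap.

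**Figure D2:**
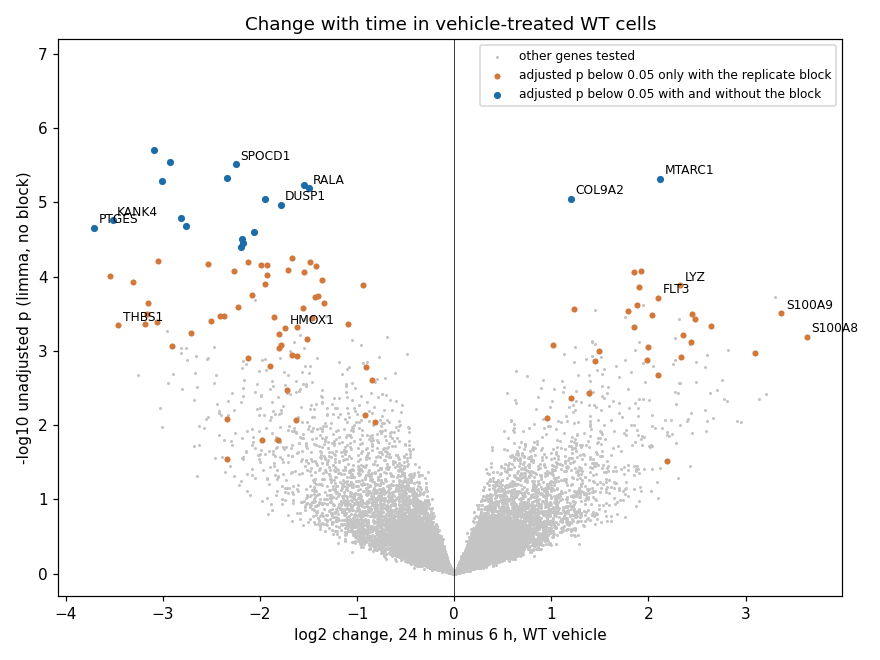
Log2 change from 6 to 24 h (horizontal axis) against -log10 of the unadjusted limma p (vertical axis) for the 21232 genes tested in WT vehicle cells; blue points are the 19 genes called with and without the replicate block, and orange points the further genes called only with it. The called points without the block lie mainly on the side of lower values at 24 h, 17 against 2.

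Secreted signals and their enzymes made up part of the falling set. PTGES (Entrez Gene 9536) stood at 5.43, 4.49 and 3.48 in 6 h replicates 1 to 3, then 3.95, 2.13 and 2.05 by 12 h, then 0.65, 1.01 and 0.60 by 24 h. All 3 libraries at 24 h were at the low end of the scale and none overlapped 6 h; the change was -3.71 (SE 0.73, adjusted p = 0.031). WNT10B (7480) stood at 4.78, 5.28 and 4.33 at 6 h and at 2.45, 2.84 and 2.52 at 24 h, a change of -2.19 (SE 0.44, adjusted p = 0.0393). Both groups of 3 were tight for WNT10B, with SDs of 0.47 and 0.21.

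Further ligands and matrix-bound proteins passed only with the replicate block. THBS1, thrombospondin 1, which binds matrix and activates latent TGF-β, was 6.57, 6.63 and 6.48 at 6 h and 3.95, 3.36 and 1.97 at 24 h, a change of -3.46 (block adjusted p = 0.033, without it 0.132). The 6 h libraries were almost alike and the 24 h libraries were spread (SD 1.02, n = 3). BMP6, a ligand of the BMP family, changed by -3.31 (block adjusted p = 0.042), from 5.75, 4.44 and 6.52 to 2.46, 3.20 and 1.11.

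ID1 and ID3, inhibitors of basic helix-loop-helix factors and standard targets of BMP signalling, also passed with the block only. ID1 was 9.53, 8.33 and 10.07 at 6 h, then 8.18, 9.04 and 8.47 at 12 h, and reached 5.55, 6.23 and 6.68 at 24 h. ID3 was 9.86, 8.47 and 10.39 at 6 h, then 8.68, 7.66 and 9.02 at 12 h, and reached 5.97, 6.36 and 6.81 at 24 h. Both had their 24 h libraries wholly below 6 h, with changes of -3.16 (8.92-fold lower, block adjusted p = 0.0269) for ID1 and -3.19 (9.13-fold lower, block adjusted p = 0.0257) for ID3; without the block the adjusted p-values were 0.116 and 0.128. ENG, the TGF-β family co-receptor endoglin, changed by -1.09 (block adjusted p = 0.0269), from 11.06, 11.18 and 10.86 to 10.12, 10.10 and 9.61. A link between BMP6 and the ID genes was not tested. At 6 h the BMP6 mean was 5.57 in WT and 3.38 in KO vehicle cells. The means were 9.31 and 10.88 for ID1, and 9.57 and 10.64 for ID3. In KO cells the changes from 6 to 24 h were -1.31 for BMP6, -1.87 for ID1 and -1.38 for ID3, and none passed.

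AREG, amphiregulin, a ligand of the EGF receptor, was 3.28, 2.56 and 4.10 at 6 h and 1.03, 1.20 and 0.58 at 24 h, a change of -2.37 (block adjusted p = 0.0336, without it 0.116). A row with no symbol (Entrez Gene 727738) had nearly the same values, 3.39, 2.48 and 4.28 against 1.10, 1.22 and 0.60. The 2 rows may therefore not be separate measurements, and both are in the counts of 73 and 104. Among the genes called higher with the block, PNMA6A (3.54, 4.33 and 2.80 at 6 h, change 1.90) had a similar neighbour. That row, with no symbol (Entrez Gene 100287428), was 3.86, 4.46 and 3.16 at 6 h with a change of 1.92. Both are in the counts of 31 and 104 and may not be separate either.

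Membrane, cytoskeletal and trafficking genes were also among those called lower. KANK4 (163782), a KANK-family regulator of the actin cortex, was 4.90, 5.44 and 3.65 at 6 h and 0.89, 1.04 and 1.51 at 24 h, a change of -3.52 (SE 0.68, adjusted p = 0.0286). Its 12 h libraries, at 1.41, 1.82 and 2.05, were already below all 6 h libraries. AQP1 (358) was 3.61, 3.14 and 5.40 at 6 h and 0.94, 1.26 and 0.92 at 24 h, a change of -3.01 (SE 0.54, adjusted p = 0.0173). The highest 6 h library for AQP1 was replicate 3, and at 24 h the 3 were alike.

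DPYSL3 (1809), a microtubule- and actin-binding protein best known from neurons, was 5.09, 4.19 and 4.72 at 6 h and 1.90, 2.44 and 0.86 at 24 h, a change of -2.93 (adjusted p = 0.0173). CTTN (2017), cortactin, which stabilises branched actin, was 5.02, 5.42 and 5.14 at 6 h and 2.48, 4.11 and 2.81 at 24 h, a change of -2.06 (adjusted p = 0.0339); replicate 2 was the highest at each time. RALA (5898), a small GTPase of vesicle delivery to the membrane, was 9.95, 9.41 and 10.06 at 6 h, then 9.35, 8.76 and 9.01 at 12 h, and reached 8.51, 8.22 and 8.21 at 24 h, 2.83-fold lower at 24 h (log2 -1.50, SE 0.27, adjusted p = 0.0173). CYTIP (9595), a scaffold that binds cytohesin and limits leukocyte adhesion, was 9.04, 8.34 and 8.87 at 6 h and 7.30, 7.59 and 6.72 at 24 h, 2.92-fold lower (log2 -1.55, SE 0.28, adjusted p = 0.0173). RALA and CYTIP were well above the coarse low range at both times.

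The other genes called lower were STAC2 (-3.09), TRIM54 (-2.81), the adhesion receptor ADGRG1 (-2.76), the lipid-binding protein SEC14L2 (-2.34), SPOCD1 (-2.25), the transcription cofactor LBH (-2.20), the glutamate receptor accessory protein GSG1L (-2.18), CCDC87 (-1.95) and DUSP1. SPOCD1 stood at 7.33, 6.81 and 7.07 at 6 h, then 6.77, 6.38 and 6.30 at 12 h, and reached 4.88, 5.34 and 4.24 at 24 h, 4.77-fold lower at 24 h (adjusted p = 0.0173). Most of the SPOCD1 difference lay between 12 and 24 h. For 11 of the 17 falling genes the 24 h mean was below 3.32, where the scale is coarse and a fold is not given.

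DUSP1 (1843) was 7.29, 6.03 and 7.48 at 6 h, then 5.61, 5.32 and 5.58 at 12 h, and reached 5.36, 5.40 and 4.67 at 24 h. The 3 libraries at 6 h were above all later ones, and most of the difference was present by 12 h; from 6 to 24 h it was 3.45-fold lower (log2 -1.79, SE 0.34, adjusted p = 0.021). HMOX1, haem oxygenase 1, an NRF2 target that degrades haem, was 11.42, 12.23 and 11.96 at 6 h, then 10.54, 11.27 and 10.71 at 12 h, and reached 10.09, 10.31 and 9.99 at 24 h. HMOX1 was 3.33-fold lower at 24 h with no overlap (log2 -1.74), with an adjusted p of 0.0336 with the block and 0.138 without. RUNX3, a Runt-domain transcription factor of leukocytes, changed by -1.67 from 9.10, 8.68 and 8.49 to 7.52, 6.99 and 6.76 (block adjusted p = 0.017, without it 0.0564).

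**Figure D3:**
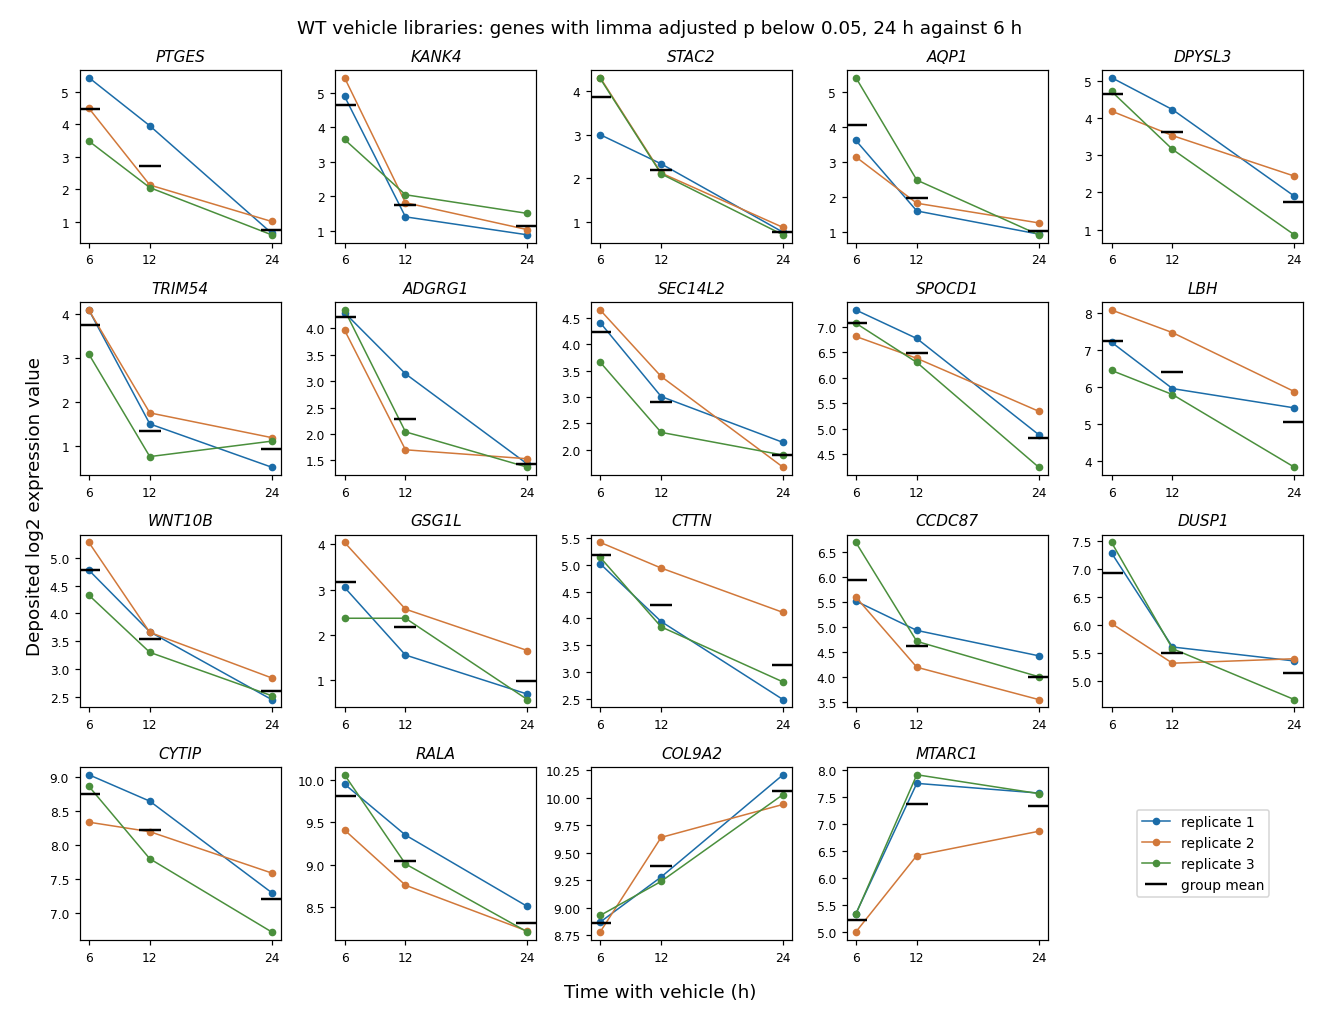
Deposited log2 values of the 19 called genes at 6, 12 and 24 h in WT vehicle cells; coloured lines join libraries of like replicate number and black bars are group means of 3. In every panel the 3 values at 24 h lie wholly on one side of the 3 at 6 h, as for 11.1% of all genes, and MTARC1 is already at its 24 h level at 12 h.

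Of the genes that were higher at 24 h, MTARC1 (64757) was 5.34, 5.00 and 5.33 at 6 h, then 7.76, 6.42 and 7.92 at 12 h, and reached 7.58, 6.87 and 7.57 at 24 h. The 6 h libraries were alike and every later library was higher; the change at 24 h was 4.33-fold (log2 2.12, SE 0.38, adjusted p = 0.0173). COL9A2 (1298) was 8.87, 8.78 and 8.93 at 6 h, then 9.28, 9.64 and 9.24 at 12 h, and reached 10.21, 9.94 and 10.03 at 24 h, a 2.30-fold rise (log2 1.20, SE 0.22, adjusted p = 0.0192). For COL9A2 the 3 times did not overlap at all.

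Among the genes that rose with the block only were LYZ, S100A8, S100A9 and FLT3. LYZ, lysozyme, was 11.52, 10.85 and 10.84 at 6 h, then 13.32, 11.25 and 12.93 at 12 h, and reached 14.31, 12.34 and 13.53 at 24 h, 5.01-fold higher at 24 h (log2 2.33, SE 0.53; adjusted p = 0.0192 with the block, 0.0712 without). S100A8 and S100A9, which form the antimicrobial protein calprotectin of monocytes and neutrophils, behaved alike. S100A8 was 10.72, 6.15 and 10.12 at 6 h and 13.35, 11.42 and 13.11 at 24 h, 12.4-fold higher (log2 3.63, SE 0.95; adjusted p = 0.0497 with the block, 0.165 without). S100A9 was 11.84, 7.76 and 12.23 at 6 h and 14.67, 13.27 and 13.98 at 24 h, 10.3-fold higher (log2 3.37, SE 0.82; adjusted p = 0.0317 with the block, 0.116 without). Replicate 2 was the lowest of its time for both, by several log2 units at 6 h. S100A12, the related calgranulin, was 6.82, 3.88 and 7.22 at 6 h and 9.38, 7.65 and 9.63 at 24 h and did not pass (adjusted p = 0.494, block 0.223).

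FLT3, the receptor tyrosine kinase of haematopoietic progenitors, was 4.30, 5.05 and 5.06 at 6 h, then 5.97, 6.32 and 6.52 at 12 h, and reached 6.70, 6.99 and 7.04 at 24 h, 4.30-fold higher (log2 2.10, block adjusted p = 0.0342, without it 0.092). ADGRE1, an adhesion receptor whose mouse counterpart marks macrophages, was 3.72, 2.85 and 5.11 at 6 h and 6.75, 5.08 and 6.87 at 24 h, with an overlap of replicate 3 at 6 h and replicate 2 at 24 h (log2 2.34, block adjusted p = 0.0298, without it 0.213). COLEC12, a scavenger receptor with a lectin domain, changed by 2.44 (block adjusted p = 0.0283), from 5.08, 3.96 and 5.85 to 8.09, 6.17 and 7.95. AOAH, which deacylates bacterial lipopolysaccharide, changed by 1.99 (block adjusted p = 0.0192), and NAIP, the sensor of bacterial flagellin and secretion needles, by 1.88 (block adjusted p = 0.0317). PER3, a period gene of the circadian clock, changed by 2.00 (block adjusted p = 0.033), from 2.33, 2.18 and 1.30 to 4.67, 3.19 and 3.94.

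Further rises that missed the threshold in both fits included C1QC, a chain of complement C1q, at 5.81, 4.28 and 5.91 at 6 h and 8.92, 6.00 and 8.54 at 24 h (adjusted p = 0.298, block 0.196), and the purinergic receptor gene P2RY13, at 1.51, 0.00 and 0.00 against 4.46, 2.56 and 3.90 (adjusted p = 0.365, block 0.239). FRMD3 (log2 2.82), CLDN4 (2.81), P2RY14 (2.66), JAML (2.58) and FLNC (2.49) likewise missed it in both. NME8 (2.64) and PHACTR3 (2.45) passed with the block, at adjusted p-values of 0.0351 and 0.0243.

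The 12 h libraries lay between the other times for most called genes. The 12 h mean fell between the 6 h and 24 h means for 18 of the 19, against 43.7% of all genes, and a median of 54.4% of the change was present at 12 h, with a range of 26% for SPOCD1 to 101% for MTARC1. The 6 h and 24 h values that chose these genes enter that count. No gene passed limma's adjusted p of 0.05 between 6 and 12 h or between 12 and 24 h, with or without the block. A limma unadjusted p below 0.05 was reached by 345 genes (1.62%) between 6 and 12 h and 269 (1.27%) between 12 and 24 h. With the block these were 567 (2.67%) and 521 (2.45%). Each share is below the 0.05 that such a threshold passes where no gene changes, so the counts are not read as differences.

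Gene lists were read by counts and medians, beside a median change of 0.01 over all genes tested, 51.9% of them positive. Among 20 markers of myeloid precursors, 18 had positive changes, the median was 0.76 and the medians by replicate number were 0.75, 0.99 and 0.75. LYZ and FLT3 passed with the block and no member without it, while 10 had an unadjusted p below 0.05, all positive. They include the granule enzyme MPO (1.61, limma block adjusted p = 0.266), the transcription factors GFI1 (1.42, 0.0691) and MYB (1.36, 0.339) and the membrane protein MS4A3 (2.32, 0.0689). MS4A3 was 3.05, 2.65 and 2.54 at 6 h and 4.98, 4.65 and 5.56 at 24 h, with no overlap. In bulk RNA, more cells of a kind and more RNA per cell cannot be told apart. The same 20 markers had 17 positive changes in KO vehicle cells, with a median of 0.79.

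Of 40 macrophage identity and scavenger receptor genes, 26 had positive changes with a median of 0.32, and ADGRE1 passed with the block. C1QA was 6.81, 4.97 and 7.75 at 6 h and 9.83, 7.54 and 9.96 at 24 h (log2 2.60, adjusted p = 0.21, block 0.109), overlapping by 1 library. CD14, the LPS co-receptor, was 8.58, 7.48 and 7.77 at 6 h and 9.97, 9.07 and 9.34 at 24 h (log2 1.52, adjusted p = 0.575). MSR1, the class A scavenger receptor, had a change of -0.99, CSF1R, the receptor for M-CSF, of -0.31 and SPP1, osteopontin, of -1.58, and none passed.

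Antigen presentation genes had positive changes in 24 of 26 members, with a median of 0.41 and medians by replicate number of 0.52, 0.26 and 0.51, and no member passed in either fit. HLA-DMA, which with HLA-DMB loads peptide on class II molecules, was 3.70, 2.61 and 5.03 at 6 h and 5.32, 3.98 and 6.92 at 24 h (1.63, adjusted p = 0.855). HLA-DRA had a change of 1.35 and HLA-DPB1 of 0.96. CIITA, the master regulator of class II transcription, had a change of the opposite sign, at 3.20, 2.14 and 4.35 against 2.07, 1.58 and 1.90 (-1.38, adjusted p = 0.578). In KO vehicle cells the antigen presentation list was positive in 16 of 26, with a median of 0.1.

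Among 27 immediate early and AP-1 genes, 17 had negative changes, the median was -0.41 and DUSP1 passed alone, with and without the block. NR4A2, an inducible nuclear receptor, was 4.59, 3.84 and 5.95 at 6 h and 3.11, 2.82 and 2.48 at 24 h (-1.99, adjusted p = 0.353), NR4A3 had a change of -1.27 and the stress factor ATF3 of -1.02, neither past the threshold. FOS (-0.29), JUN (-0.41) and EGR1 (0.27), the classical members, had small changes that did not pass. The list median by replicate number was -0.47, -0.06 and -0.67.

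Matrix protease and fibrinolysis genes had the lowest median of the 31 lists, -0.42, with 18 of 25 negative. THBS1 passed with the block. MMP1, interstitial collagenase, was 4.21, 4.71 and 5.30 at 6 h and 1.57, 3.91 and 0.46 at 24 h (-2.76, adjusted p = 0.188, block 0.0551). F13A1, the coagulation factor XIII A chain, had a positive change of 1.76 (unadjusted p = 0.00133, block adjusted p = 0.0635).

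Glycolysis and hypoxia genes were negative in 25 of 31 (median -0.29), heat shock chaperones in 12 of 15 (median -0.33) and replication-dependent histones in 13 of 15 (median -0.34), and none of their members passed in either fit. The growth factor VEGFA had a change of -1.16 and the carbonic anhydrase CA12 of -1.81, with unadjusted p-values of 0.0167 and 0.00709. H2BC21, a histone gene, was 11.49, 12.01 and 11.78 at 6 h and 10.40, 11.14 and 10.61 at 24 h (-1.05, adjusted p = 0.173, block 0.0512). Histone genes of 1 family share sequence, and how reads were split among them is not given. In KO vehicle cells the list medians were 0.05 for glycolysis and hypoxia, 0.22 for heat shock chaperones and -0.56 for histones.

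Lipid genes included sizeable differences that did not pass. LPL, lipoprotein lipase, was 9.77, 11.28 and 9.65 at 6 h and 7.89, 9.79 and 6.98 at 24 h, overlapping through replicate 2 (-2.01, adjusted p = 0.555). FABP4, a fatty acid carrier, was 9.18, 9.03 and 10.32 at 6 h and 7.50, 7.64 and 7.52 at 24 h, with no overlap (-1.95, adjusted p = 0.724). The list of LXR targets and lipid storage genes was negative in 16 of 21, with a median of -0.16.

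No member of 4 inflammatory lists passed in either fit. Interferon-stimulated genes had a median of 0.05 (23 of 40 positive), NF-κB feedback genes 0.04 (17 of 30), cytokines 0.12 (16 of 29) and chemokines -0.30 (11 of 29). The largest cytokine change was OSM, oncostatin M, at 6.42, 4.49 and 7.28 against 3.42, 3.88 and 2.93 (-2.65, adjusted p = 0.317). CXCL8, the neutrophil attractant interleukin-8, was 7.67, 7.25 and 6.89 at 6 h and 6.15, 6.56 and 4.67 at 24 h (-1.48, adjusted p = 0.838). IL1B (-0.61) and TNF (0.15) did not pass.

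No housekeeping or proliferation gene on the lists passed in either fit. Ribosomal protein genes had a median of -0.05, oxidative phosphorylation genes 0.07 and TCA cycle genes 0.04. DNA replication and cell cycle genes were positive in 27 of 32 with a median of 0.21, but the medians by replicate number were 0.07, 0.76 and -0.10. TYMS, thymidylate synthase, was 9.40, 10.30 and 9.70 at 6 h and 9.87, 11.01 and 9.96 at 24 h (0.48, adjusted p = 1.0). Protein kinase C genes and their relatives had a median of 0.20, with RASGRP2 at 1.47 and RASGRP3 at -1.05, neither past the threshold.

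The remaining lists also had medians within 0.25 of 0. They were lysosome genes (0.22), cholesterol genes (0.16), itaconate enzymes (0.14), circadian clock genes (-0.01, with PER3 past the threshold with the block), interferon-gamma regulators (-0.04), autophagy genes (-0.05), integrated stress genes (-0.07), markers of other cell types (-0.12), unfolded protein response genes (-0.13), myeloid transcription factors (-0.13, with RUNX3 past it with the block), metallothioneins (-0.16), NRF2 targets (-0.22, with HMOX1 past it with the block) and p53 targets (-0.25).

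**Figure D4:**
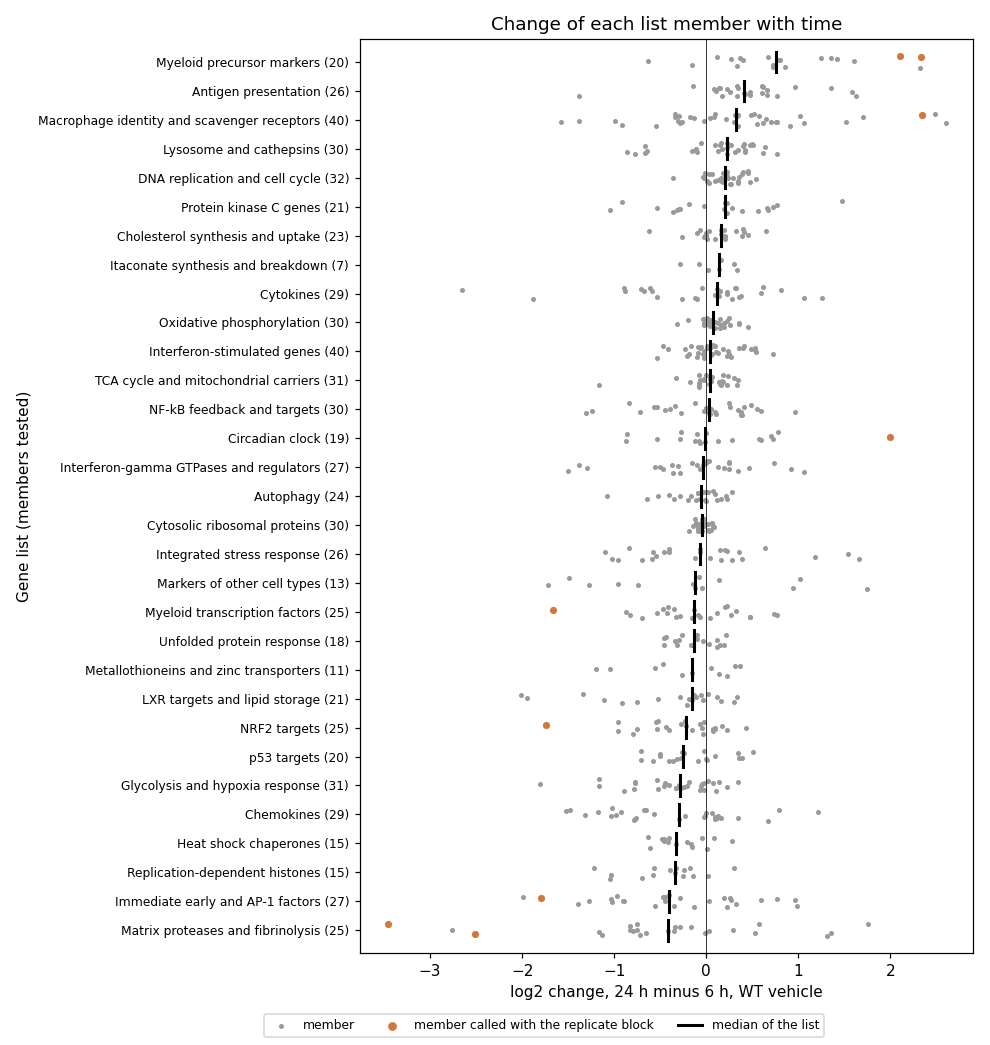
Log2 change from 6 to 24 h in WT vehicle cells of each tested member of 31 gene lists, ordered by list median (black bar); the number of members is in brackets, the vertical jitter carries no meaning and orange points passed with the replicate block. Medians run from -0.42 for matrix proteases and fibrinolysis to 0.76 for myeloid precursor markers, and most members lie close to 0.

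Promoter windows were read for letters of known elements, since DUSP1 and AREG are known targets of cAMP and PMA signals; these 2 genes prompted the search, so their own matches are a description only. RefSeq windows from 250 bases before to 50 after the start site (GRCh38.p14) matched 54 of the 73 genes lower with the block and 22 of the 31 higher. The cAMP response element TGACGTCA, a palindrome, was in the windows of 3 of the 54 (DUSP1, AREG and CHMP1B), in 1 of the 22 (PNMA6A) and in 1.98% of all 27305 windows. Those 27305 are all genes with a RefSeq window, more than the 21232 tested, so the shares include genes that could not be called. The AP-1 site TGANTCA, on either strand, was in 7 of the 54 (TRIM54, TM4SF19, STAT4, MRO and 3 noncoding or uncharacterised genes), in none of the 22 and in 7.76% of all windows. The letters of neither element match the other, and 15 motifs were searched on both strands. The others are given as the count in the 54, the count in the 22 and the share of all windows. They were the NF-κB site (0, 0 and 0.579%), CACGTG (E-box: 2, 4 and 7.43%) and NACGTG (hypoxia core, which contains the E-box: 10, 5 and 21.6%). Next were the sterol element (0, 0 and 0.0476%), TGATGNAAN (ATF4: 0, 0 and 3.67%), the interferon-stimulated element (1, 2 and 3.65%) and TTTGAA (CHR: 9, 3 and 15.4%). Then came TTTGGCGC (E2F: 1, 1 and 0.659%), the CCAAT box (16, 7 and 35.7%) and TGCGCNC (metal: 16, 8 and 20%). The rest were the heat shock element (0, 0 and 0.487%), TGACNNNGC (antioxidant: 12, 3 and 13.6%) and the serum response element (0, 0 and 0.0366%). The 250 bases before the start site are shown, 5′ to 3′ on the gene's strand, with the element in capitals, for the 3 genes with the cAMP element and 2 with the AP-1 site:
DUSP1: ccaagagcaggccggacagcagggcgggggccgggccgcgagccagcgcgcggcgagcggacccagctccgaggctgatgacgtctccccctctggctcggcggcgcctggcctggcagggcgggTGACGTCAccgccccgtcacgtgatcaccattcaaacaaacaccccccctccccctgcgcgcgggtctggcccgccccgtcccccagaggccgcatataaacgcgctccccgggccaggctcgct
AREG: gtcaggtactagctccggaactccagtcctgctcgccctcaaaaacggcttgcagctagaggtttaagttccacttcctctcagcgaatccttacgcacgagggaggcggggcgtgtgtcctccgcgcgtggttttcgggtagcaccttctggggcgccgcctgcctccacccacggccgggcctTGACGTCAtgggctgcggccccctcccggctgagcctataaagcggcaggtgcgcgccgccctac
CHMP1B: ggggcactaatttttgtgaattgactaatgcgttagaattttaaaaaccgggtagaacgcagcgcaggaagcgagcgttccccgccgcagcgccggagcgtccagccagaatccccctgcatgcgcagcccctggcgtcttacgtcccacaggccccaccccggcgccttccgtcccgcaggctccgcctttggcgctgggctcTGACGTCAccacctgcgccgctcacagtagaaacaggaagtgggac
TRIM54: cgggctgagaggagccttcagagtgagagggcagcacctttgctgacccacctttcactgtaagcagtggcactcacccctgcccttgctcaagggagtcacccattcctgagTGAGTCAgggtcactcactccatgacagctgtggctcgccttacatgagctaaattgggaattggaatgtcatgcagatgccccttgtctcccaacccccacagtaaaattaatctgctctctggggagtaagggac
TM4SF19: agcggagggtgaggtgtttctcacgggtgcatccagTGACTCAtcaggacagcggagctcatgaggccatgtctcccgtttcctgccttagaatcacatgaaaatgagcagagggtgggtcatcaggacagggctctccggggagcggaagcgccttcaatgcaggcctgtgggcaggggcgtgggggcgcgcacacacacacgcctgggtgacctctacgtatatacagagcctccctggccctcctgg

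The DUSP1 window is chr5:172771196-172771445, minus strand, with the element starting at position -125 from the start site. The AREG window is chr4:74444886-74445135, plus strand (element at -65), CHMP1B chr18:11851163-11851412, plus strand (element at -46), TRIM54 chr2:27282179-27282428, plus strand (element at -137) and TM4SF19 chr3:196338389-196338638, minus strand (element at -214). CHMP1B, a subunit of the membrane-cutting ESCRT-III complex, was 13.94, 13.29 and 14.23 at 6 h and 13.12, 12.96 and 12.81 at 24 h (-0.85, block adjusted p = 0.023, without it 0.289). TRIM54, a muscle-type ubiquitin ligase, was 4.09, 4.09 and 3.09 at 6 h and 0.53, 1.20 and 1.12 at 24 h (-2.81, adjusted p = 0.0285). TM4SF19, a tetraspan membrane protein of osteoclasts and macrophages, was 9.43, 10.06 and 9.12 at 6 h and 7.45, 8.14 and 7.58 at 24 h (-1.81, block adjusted p = 0.0401, without it 0.188); a read-through transcript with TM4SF19 had the same change of -1.81, so the pair may not be separate measurements. A match describes the letters of the window only.

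The IRG1 KO vehicle libraries, which share no sample with the WT vehicle libraries, gave 177 genes between 6 and 24 h (0.834%), 48 higher (0.226%) and 129 lower (0.608%), and 452 with the block (2.13%). Of the 19 genes, 18 had the same sign in KO cells, against 59.4% of all genes, and 8 passed there: STAC2, AQP1, TRIM54, SEC14L2, SPOCD1, LBH, DUSP1 and MTARC1. The overlap of 8 genes is 42.1% of the WT genes and 4.52% of the KO genes. Of the 104 genes called with the block, 99 had the same sign. Of the 177 KO genes, 163 had the same sign in WT cells and 28 passed there with the block.

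MTARC1 changed by 2.05 in KO cells (adjusted p = 0.00446) beside 2.12 in WT cells, and DUSP1 by -2.06 (adjusted p = 0.00121) beside -1.79. LYZ was 11.07 ± 0.39 (SD, n = 3) at 6 h and 13.39 ± 0.99 at 24 h in WT cells, and its KO means were 7.76 and 11.37, a change of 3.61 (adjusted p = 0.000368). S100A8 changed by 5.43 in KO cells (adjusted p = 0.00247) and S100A9 by 4.17 (adjusted p = 0.00747). AQP1 had a KO mean of 7.69 at 6 h and 2.50 at 24 h, a change of -5.19 (adjusted p = 3.69e-06).

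PTGES and WNT10B stood apart in level: their KO means were 0.25 and 0.27 for PTGES and 1.48 and 1.37 for WNT10B at 6 and 24 h, at the low end of the scale at both times. THBS1 had a change of -0.68 in KO cells (adjusted p = 0.857) beside -3.46 in WT. The WT minus KO difference in time change had a limma unadjusted p below 0.05 for 499 genes (2.35%), or 799 (3.76%) with the block. Both shares are below the 0.05 that such a threshold passes where nothing differs. The difference in time change between WT and KO cells passed limma's adjusted p for no gene, with or without the block. For PTGES that difference was -3.73 (SE 1.04), for THBS1 -2.78 and for AQP1 2.18 (SE 0.76), each with an adjusted p of 1.0.

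**Figure D5:**
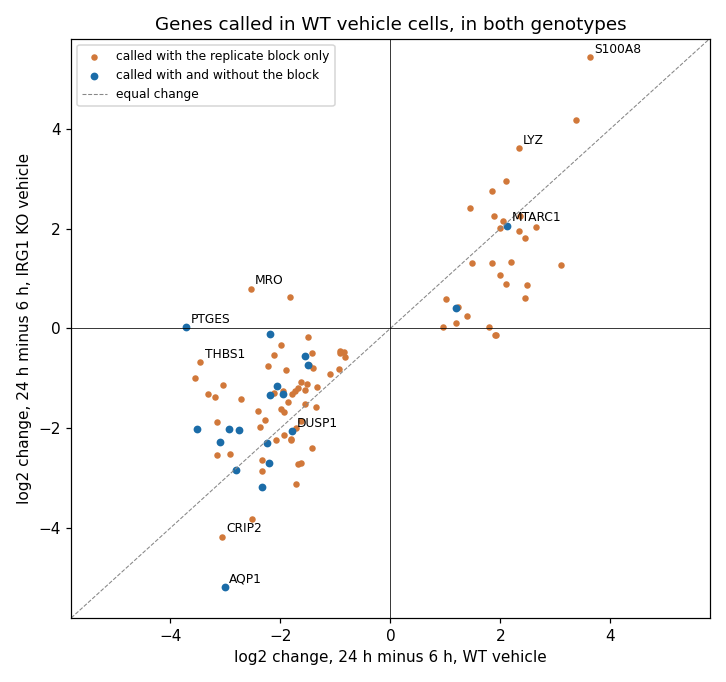
Log2 change from 6 to 24 h in WT vehicle cells (horizontal axis) against IRG1 KO vehicle cells (vertical axis) for the 104 genes called in WT with the replicate block; blue points are the 19 called without it too and the dashed line marks equal change. Most points share the sign in both genotypes (99 of 104), with PTGES near 0 in KO cells.

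In WT cells given LPS plus IFN-γ, which share no library with the vehicle group, 4834 genes (22.8%) differed between 24 and 6 h. The time change differed between vehicle and stimulated cells for 2046 genes (9.64%), and for 12 of the 19, all of them genes that fell with vehicle. The vehicle change that chose the 19 is a term of that difference, so this count is raised by the choice and is given as a description. The sign of the stimulated change matched that with vehicle for 12 of the 19, against 49.4% of all genes. CTTN fell by 2.06 on the log2 scale with vehicle and rose by 1.29 with stimulation (difference -3.35, SE 0.58, adjusted p = 5.52e-04). PTGES had stimulated means of 5.67 at 6 h and 7.55 at 24 h (difference -5.60, SE 1.04, adjusted p = 0.00111). RALA (difference -1.78, adjusted p = 0.00396), CYTIP (-2.00, adjusted p = 0.00187) and ADGRG1 (-3.37, adjusted p = 0.00565) had stimulated changes between 0.28 and 0.61 that did not pass.

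Of the genes called with the block, the vehicle and stimulated changes differed for 43 of 104, a count raised by the choice in the same way. HMOX1 had a stimulated change of 1.37 (difference -3.11, adjusted p = 0.00227) and CHMP1B of 1.75 (difference -2.61, adjusted p = 6.47e-05). FLT3 changed by -2.37 with stimulation (difference 4.47, adjusted p = 1.86e-04), and LYZ had a change of -0.08 (difference 2.40, adjusted p = 0.0379). For THBS1 (-3.66 with stimulation) and COL9A2 (1.33) the time change had the same sign under both treatments, and the differences of 0.20 and -0.13 did not pass (adjusted p = 0.948 and 0.855).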

How the data were processed

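RNA sequencing was done on 36 THP-1 libraries (12 groups of 3). Per the labels' protocols RNA was extracted with Qiagen RNeasy and libraries were made with the Roche KAPA HyperPrep kit with RiboErase; alignment and trimming used GSNAP, cutadapt and GRCh37.p5, as named in the submitters' processing notes, and the counter, annotation, offset and normalization are not given in the sources used here. The values are log2 values deposited by the authors per Entrez Gene ID, with near-identical distributions; depth is unknown, so no interval from depth is given. Of 21599 rows, 20609 matched a RefSeq symbol (GRCh38.p14 table). Genes at or above 3.32 (log2 of 10) in at least 3 libraries were kept (21232). limma 3.58.1 in R 4.3.3 fitted 12 group means to all 36 libraries (eBayes with trend, 24 residual degrees of freedom); p-values were adjusted by Benjamini-Hochberg over all kept genes and called below 0.05. The replicate block was an alternative fit. Like-numbered WT vehicle libraries deviated together from their group means (r = 0.371 to 0.543 in all 9 pairs), as did those of the KO vehicle (0.263 to 0.416) and WT stimulated groups (0.261 to 0.425), so the numbers were taken as pairing samples within these time courses, from the values and not from the labels. They do not pair every group: between WT and KO vehicle at 6 h, replicate 2 gave -0.036, and WT replicate 2 with KO replicate 1 gave 0.22. The block was nonetheless fitted over all 36 libraries, with the 9 WT vehicle libraries alone as an alternative. Folds are 2 to the power of the log2 change and are given only where both means reach 3.32. Tables and figures used Python 3.11.15 with numpy 2.4.6, pandas 2.3.3 and matplotlib 3.10.9; the fit was tested on simulated data. Named genes were ACOD1, the 15 largest rises and falls among called genes without overlap (places filled at unadjusted p below 0.01), the leading members of each of 31 lists, and the genes with the largest vehicle against stimulated differences; the other genes that passed only with the block were named after their values were seen. The comparison, lists and motifs were chosen with earlier results of these data known. A gene of the lists is not reported here.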

Additional observations from a re-analysis of the deposited data

Results flagged for a closer look

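The change from 6 to 24 h differed between vehicle and LPS plus IFN-γ in WT cells for 2046 genes by a limma test of the difference itself. Among the 19 genes called with vehicle, 12 were of this kind, a count raised by the choice, since the vehicle change that chose them is a term of the difference. The vehicle minus stimulated difference was -5.60 for PTGES, -3.51 for KANK4, -3.37 for ADGRG1, -3.35 for CTTN, -2.81 for AQP1, -2.57 for CCDC87, -2.48 for STAC2, -2.35 for DPYSL3, -2.30 for LBH, -2.00 for CYTIP, -1.98 for SPOCD1 and -1.78 for RALA. The most negative differences beside PTGES were LRRC31 at -5.86, H4C4 at -5.74, MAP1LC3C at -5.55, EPCIP at -5.52 and H3C6 at -5.23. The most positive were THSD7B at 7.10, GPR31 at 6.77, TTBK1 at 6.21, KCNV1 at 6.12, FCAMR at 6.10 and SERPINB4 at 6.07. With vehicle, each gene of this positive group had means below 3.32 at 6 and 24 h, in the coarse low range. LRRC31, EPCIP and H3C6 of the negative group did too. GPR31 and KCNV1 were at 0.00 in every 6 h vehicle library, against stimulated 6 h means of 7.38 and 4.98. None of these 11 genes passed between 6 and 24 h with vehicle (adjusted p from 0.188 for MAP1LC3C to 1.0), and their stimulated changes ran from -6.02 for SERPINB4 to 4.42 for H3C6.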

How the results depend on the processing

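The 19 genes called between 6 and 24 h became 104 with the replicate block, 498 with the block in the 9 WT vehicle libraries alone, 492 with library weights, 46 with a pseudocount of 5 and 5 with a stricter filter on low values. With limma on only the 9 WT vehicle libraries or only the 6 compared, 0 genes passed (1495 and 1316 at an unadjusted p below 0.05). Leaving out 1 compared library gave 0 to 19 genes. With the replicate block, which was tried in these ways after seeing the data, leaving out 1 library gave 27, 88 and 2 (24 h replicates 1 to 3) and 1, 60 and 37 (6 h replicates 1 to 3). With the block and replicate number 1, 2 or 3 left out of every group, 0, 410 and 0 genes passed (721, 2916 and 889 unadjusted). Median centring, quantile normalization, no filter and a minimum log2 change of 1 each gave 19, a linear trend 15 and no mean-variance trend 25. Without the block, leaving out a library could not reverse the 19 genes, since their 6 h and 24 h values did not overlap. None of the 19 reversed direction in the other fits that tested them. The same is not said of uncalled genes, whose changes can lie near 0. The stricter filter tested only some of the 189 genes followed across the fits (86 kept their side of the threshold and 1 lost its call). The cause of the changes in count was not tested.

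For 12 against 6 h, 0 genes became 25 with library weights and 2 with a pseudocount of 5 (0 to 2 leaving out 1 library); for 24 against 12 h, 3 with library weights (0 to 1). In KO vehicle cells, 177 became 452 with the replicate block, 3986 with library weights, 287 with a pseudocount of 5, 69 with the stricter filter and 14 with only the libraries compared (68 to 156). In WT stimulated cells, 4834 became 8701 with library weights, 2909 with the stricter filter and 1389 with only the libraries compared. The WT against KO difference went from 0 to 143 with library weights, 7 with a pseudocount of 5, 2 without the trend and 1 with only the libraries compared (0 to 1). The vehicle against stimulated difference went from 2046 to 3242 with the replicate block, 5659 with library weights and 932 with only the libraries compared (1268 to 1978). Depth is unknown, and low values in recurring steps limit what can be said of genes near the bottom of the scale.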
